A study of Mus musculus with 20 samples.

Results

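The comparison described here is a difference of differences in CpG methylation. It is the change from CD34+ to CD34- promyelocytes in PML-RARa mice minus the same change in wild-type (WT) mice. It rests on all 20 libraries of the study, 5 in each of 4 groups: WT CD34+, WT CD34-, PML-RARa CD34+ and PML-RARa CD34-. Libraries were placed by the genotype and cell type in their labels, and the design text calls the CD34+ cells early and the CD34- cells late. All mice shared the FVB/n background, and those with PML-RARa are described as transgenic. The promoter of the transgene, the age of the mice, their number and any pooling are not given in the sources used here. A p-value over these libraries therefore measures the spread between libraries, part of which may be technical. The change was also taken between libraries with consecutive numbers in their titles (1 and 2, 3 and 4, up to 19 and 20), which gave 10 pairs, 5 per genotype. The titles also carry a mark, #1 or #2, which both libraries of a pair share. Both marks occur in each genotype, and their meaning is not given. The labels do not say that libraries of a pair came from 1 mouse, so the pair changes are given as values.

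Promyelocytes are granulocyte precursors that fill with primary granules and lose the progenitor surface protein CD34 as they mature. PML-RARa, a fusion of the PML protein with the retinoic acid receptor alpha, is the initiating lesion of acute promyelocytic leukaemia, in which promyelocytes accumulate without finishing maturation, and it binds and represses retinoid target genes. Methylation of CpG cytosines is stably low at most CpG-rich promoters, while distal elements commonly lose methylation as a lineage matures. A difference of differences near 0 means that a window changed alike in both genotypes, a positive value means a smaller loss or a larger gain in PML-RARa cells, and a negative value the reverse.

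Methylation was read by enhanced reduced representation bisulfite sequencing (ERRBS), in which an unmethylated cytosine is read as T and a methylated one as C. Total coverage ranged from 83631324 to 362881291 per library. A window was a fixed 1 kb interval of the mm9 genome on chromosomes 1 to 19 with at least 3 cytosines that had at least 10 reads in all 20 libraries. The 84524 windows held a median of 5 such cytosines, and the median window had between 322 and 903 reads, depending on the library. The level of a window is the percent of its summed reads that were methylated, and all changes below are in percentage points of that level. A group of 5 libraries scattered more than the others around their group: WT CD34+ replicate 1, PML-RARa CD34+ replicates 5 and 11, and PML-RARa CD34- replicates 6 and 12. Their median distance from the other libraries of the group, in windows of 20 to 80% methylation, was 6.33 to 8.29 points, against 3.38 to 5.86 in the other 15. Replicates 11, 1, 5 and 12 had the lowest total coverage of all libraries (83631324, 94591788, 112720321 and 131888291), while replicate 6 had 289157822. The part of depth in the scatter was not tested. Of the 10 pairs, 5 had both libraries on 1 flowcell (3 WT and 2 PML-RARa).

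Window by window, no difference between the genotypes in the maturation change passed the test. The quasi-binomial interaction test with Benjamini-Hochberg adjustment called 0 of the 84524 windows (0% called), where a call needed a difference of differences of at least 10 points besides an adjusted p below 0.05. The smallest adjusted p was 0.809, and 4384 windows (5.19%) had an unadjusted p below 0.05. The interaction was also run in limma on percent levels and in edgeR, which called 0 windows each, with 3375 and 2426 at an unadjusted p below 0.05. The measured differences were small in most of the genome read here: 79.7% of windows lay within 5 points of 0 and the median absolute value was 1.75 points. At least 10 points were measured at 4577 windows (5.42%), in the positive direction at 2726 and in the negative at 1851. Differences were larger at intermediate levels. In the 14695 windows of 20 to 80% mean methylation the median absolute value was 4.31 points. At least 10 points were measured at 2607 of these, positive at 1571 and negative at 1036.

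The absence of calls does not show equal maturation, because the precision was limited where methylation is intermediate. The median standard error of a difference of differences, from limma, was 3.21 points over all windows and 7.03 points in the 14695 windows of 20 to 80% mean methylation. The 95% interval lay within 20 points of 0 at 86.2% of all windows and at 50.9% of the intermediate ones, and within 10 points at 54.4% and 11.0%. The PML-RARa libraries varied more than the WT libraries, and they held 4 of the 5 libraries of high scatter. The part of depth in this was not tested. The median SD of a window was 2.68 points in WT CD34+, 2.48 in WT CD34-, 3.26 in PML-RARa CD34+ and 3.44 in PML-RARa CD34- cells (n = 5 each).

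The changes of both genotypes shared their sign at 54.2% of all windows and at 58.6% of the intermediate ones. Pearson's r between the WT and the PML-RARa change was 0.295 across the 84524 windows and 0.406 across the 14695 intermediate windows; windows share libraries and depth and are not replicates. Losses of at least 10 points in both genotypes were measured at 624 windows and gains of that size in both at 113. Changes of that size in opposite directions were fewer: 47 windows had a loss in WT with a gain in PML-RARa cells, and 29 the reverse.

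Maturation itself left a set of windows in which the size of the change can be compared between genotypes. These windows were chosen by the average change of both genotypes relative to the scatter of the libraries. That scatter was larger in the PML-RARa libraries, so the choice is not independent of the difference between the genotypes. The fraction effect, tested with genotype in the model, was called at 559 windows (0.661% called, quasi-binomial test, Benjamini-Hochberg adjusted p below 0.05 and a mean change of at least 10 points). Methylation fell with maturation at 493 of them (0.583% called) and rose at 66 (0.0781% called). All 559 had the same sign of change in both genotypes, which the required mean change largely brings about. Called or not, 1178 of 1201 windows with a mean loss of at least 10 points and 283 of 298 such gains shared the sign.

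At the 493 windows that lost methylation, the loss was mostly smaller in PML-RARa cells. The median change was -22.8 points in WT and -15.5 points in PML-RARa cells, and the median difference of differences was 7.47 points (quartiles 1.92 and 13.0). The value was positive, a smaller loss in PML-RARa cells, at 400 of the 493 (81.1%), beside 52.2% of all windows. A difference of at least 10 points was positive at 182 and negative at 7. Averaged over the windows, the PML-RARa loss was 67.6% of the WT loss. The same share was 63.6% over all windows and 59.1% over the intermediate ones, so it was not particular to the 493. None of the 493 was called for the interaction, 84 (17.0%) had an unadjusted p below 0.05 beside 5.19% of all windows, and the smallest adjusted p was 0.908 (quasi-binomial test, Benjamini-Hochberg). On the logit scale, from M-values, which stretches levels near 0 and 100%, the loss was smaller in PML-RARa cells at 367 of the 493. The choice of windows bears on these values, because a call depends on the scatter of the libraries as well as on the change. In all 1201 windows with a mean loss of at least 10 points, called or not, the median difference of differences was 2.90 points. The loss was smaller in PML-RARa cells at 734 of them (61.1%) and averaged 83.4% of the WT loss. An unadjusted p below 0.05 was reached by 142 of the 1201 (11.8%). This set was added after the data were seen.

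The 66 called windows that gained methylation leaned the same way, with less change in PML-RARa cells. The median gain was 18.5 points in WT and 14.9 points in PML-RARa cells, with a median difference of differences of -5.31 points. The gain was smaller in PML-RARa cells at 48 of 66 windows (72.7%), and at 47 of 66 on the logit scale. An unadjusted p below 0.05 was reached by 12 of them (18.2%), beside 36 (12.1%) of all 298 windows with a mean gain of at least 10 points. None of the 66 was called. The direction did not hold without the call: in all 298 windows with a mean gain of at least 10 points the median difference of differences was 0.775 points, and the gain was smaller in PML-RARa cells at 141 (47.3%).

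**Figure D1:**
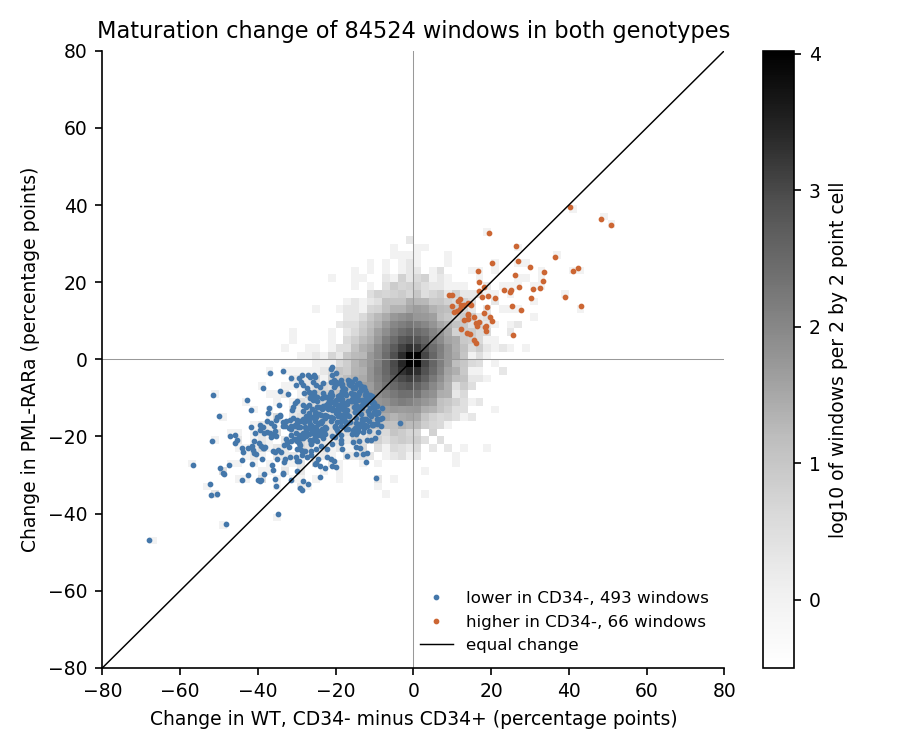
Change of each window with maturation (CD34- minus CD34+, percentage points) in WT on the x axis and in PML-RARa on the y axis, with grey for all 84524 windows (log10 of the number per cell) and dots for the windows called for the fraction effect. Most of the 493 blue dots lie above the line of equal change (400 of 493) and most of the 66 orange dots below it (48 of 66).

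In the called windows, the levels behind these changes place most of the difference in the early cells. Without the call this was less clear. In the 1201 losses of at least 10 points the median PML-RARa minus WT level was -5.14 points in early and -2.27 in late cells. In the 681 losses of 10 to 20 points not called it was -2.35 and -3.27 points. In the 298 gains of at least 10 points it was 2.20 and 2.42 points. Over the 493 losing windows the mean level in WT CD34+ libraries was 65.3% in replicate 1, 62.7% in replicate 7, 65.7% in replicate 9, 54.9% in replicate 15 and 58.6% in replicate 17. In PML-RARa CD34+ libraries it was 52.7% in replicate 3, 58.6% in replicate 5, 50.6% in replicate 11, 47.1% in replicate 13 and 51.3% in replicate 19. Of the 5 PML-RARa libraries, 4 lay below every WT library, and replicate 5 lay among the lower WT ones. Flowcells were not balanced between these groups. WT CD34+ replicates 1 and 17 lay on flowcell A, 7 on B, and 9 and 15 on D. PML-RARa CD34+ replicates 3, 5 and 11 lay on B, 13 on D and 19 on C. The part of the flowcell in the early levels was not tested.

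In the CD34- libraries the genotypes overlapped. The WT levels were 40.7% in replicate 2, 37.2% in replicate 8, 41.0% in replicate 10, 33.2% in replicate 16 and 36.2% in replicate 18. The PML-RARa levels were 37.9% in replicate 4, 34.3% in replicate 6, 36.6% in replicate 12, 35.2% in replicate 14 and 36.1% in replicate 20. The group means were thus 61.4% ± 4.63 and 52.1% ± 4.20 in CD34+ cells of WT and PML-RARa mice, and 37.7% ± 3.27 and 36.01% ± 1.38 in CD34- cells (SD, n = 5 each). The PML-RARa mean was below the WT mean at 445 of the 493 windows in CD34+ cells, by a median of -8.63 points. In CD34- cells it was below at 318, by a median of -1.54 points.

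At the 66 gaining windows the order was mirrored. The CD34+ mean was 37.2% ± 3.77 in WT and 43.7% ± 3.36 in PML-RARa mice, while the CD34- mean was 58.9% ± 2.24 and 59.9% ± 2.03 (SD, n = 5 each). In CD34+ cells the PML-RARa level was the higher at 56 of 66 windows, with a median difference of 5.65 points. In CD34- cells it was higher at 38, with a median of 0.173 points. At both kinds of called window the CD34+ level of PML-RARa mice was thus nearer to the CD34- level than that of WT mice was. In DNA from sorted bulk fractions a different mixture of cells and a partial change in each cell cannot be told apart.

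**Figure D2:**
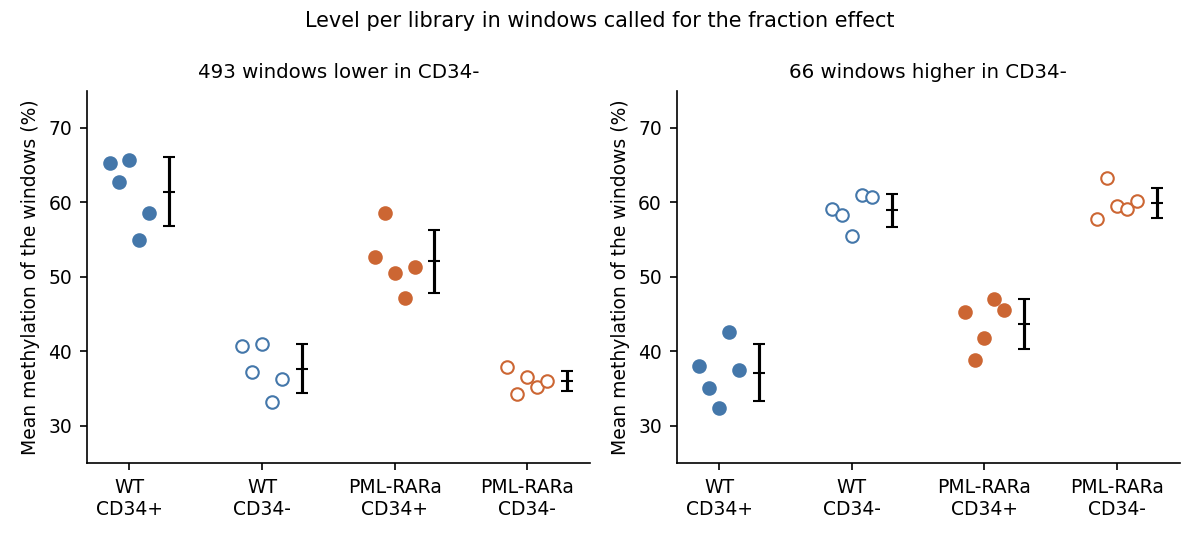
Mean methylation (%) of the windows called for the fraction effect in each library, with filled points for CD34+ and open points for CD34- libraries and the mean ± SD of the 5 libraries in black. The genotypes differ by 61.4% against 52.1% in CD34+ and by 37.7% against 36.01% in CD34- libraries at the 493 losing windows.

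Taken per pair of title numbers, the mean change over the 493 losing windows was -24.6 points in WT replicates 1 and 2, -25.5 in 7 and 8, -24.7 in 9 and 10, -21.7 in 15 and 16 and -22.4 in 17 and 18. In PML-RARa mice it was -14.8 points in replicates 3 and 4, -24.4 in 5 and 6, -13.95 in 11 and 12, -11.9 in 13 and 14 and -15.2 in 19 and 20. In PML-RARa mice 4 pairs lost less than every WT pair, and the pair of replicates 5 and 6 stood inside the WT range. Without that pair, which was left out after its value was seen, the fraction effect was called at 476 losing windows and their median difference of differences was 9.57 points.

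The mean gain over the 66 gaining windows followed the same pattern. It was 21.1, 23.1, 23.03, 18.4 and 23.2 points in the WT pairs, in the order above. In the PML-RARa pairs it was 12.4, 24.4, 17.7, 12.0 and 14.6 points. The pair of replicates 5 and 6 again had the largest change among the PML-RARa pairs, here above every WT pair. Their 2 libraries are among the 5 of high scatter and lay on different flowcells. The pairs with both libraries on 1 flowcell thus leave out replicates 5 and 6. In these pairs the mean change at losing windows was -24.2 points in WT (3 pairs) and -14.4 points in PML-RARa mice (2 pairs). At gaining windows it was 23.1 and 15.1 points.

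**Figure D3:**
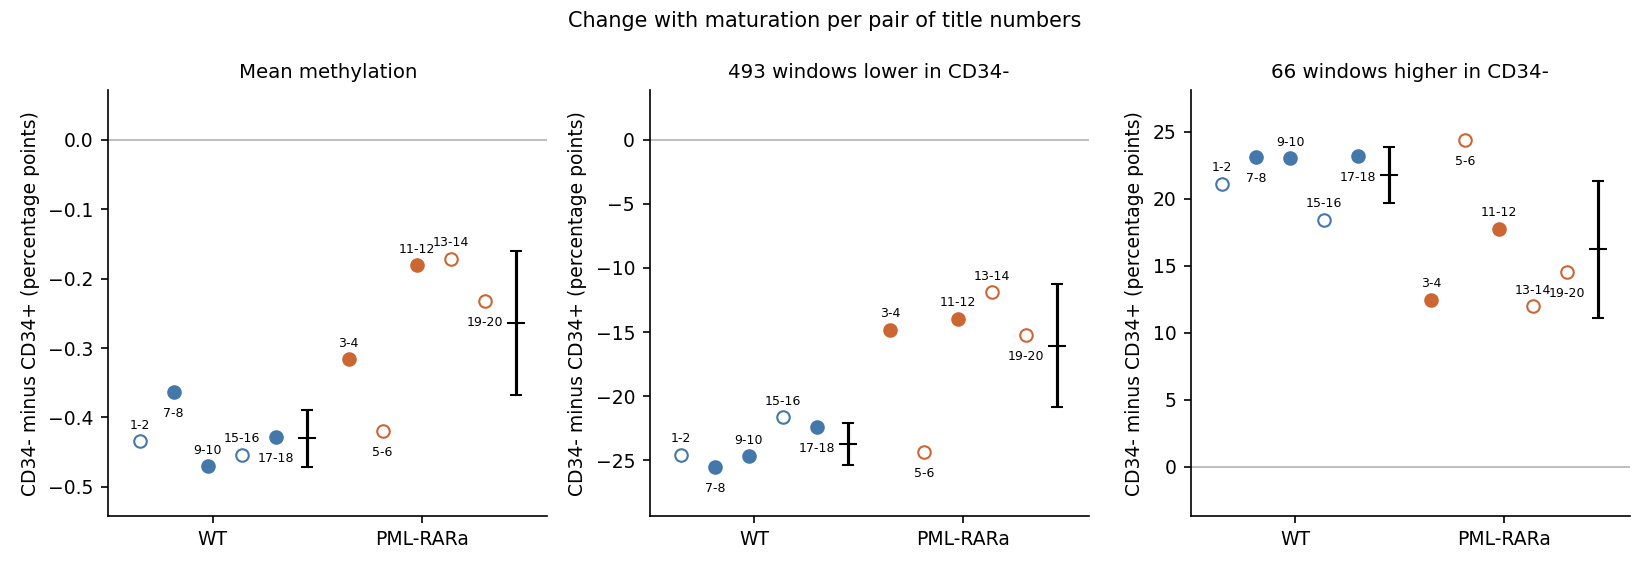
Change per pair of consecutive title numbers (CD34- minus CD34+, percentage points) in mean methylation and in both sets of windows, with filled points where both libraries lay on 1 flowcell and the mean ± SD of 5 pairs in black. In each panel 4 of the 5 PML-RARa pairs show a smaller change than every WT pair, and replicates 5 and 6 do not.

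The difference of differences depended on the size of the change. Over all 84524 windows, ordered by the mean of both genotypes' changes, the 51 windows with a mean loss of over 30 points had a median difference of differences of 15.9 points. The median was 8.80 points in the 188 windows with a loss of 20 to 30 points and 1.08 points in the 962 with a loss of 10 to 20 points. In the 3982 windows with a mean loss of 5 to 10 points the sign turned, with a median of -1.63 points and a positive value at 39.7%. The 77477 windows within 5 points of no change had a median of 0.03 points.

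Among gains the sign turned at a larger change. The median was 3.24 points at 5 to 10 points of mean gain (1566 windows), which is a larger gain in PML-RARa cells, and still positive, at 1.32 points, from 10 to 20 points (271 windows). It was -8.06 points at 20 to 30 points (21 windows) and -14.1 points above 30 points (6 windows). Among the windows with a mean loss of 10 to 20 points, the 281 called for the fraction effect had a median of 5.46 points and the 681 not called one of -1.04 points. With a mean loss of over 20 points the medians were 10.3 points in the 212 called windows and 3.196 points in the 27 not called. The split by call is a description only, since the size and the scatter of the change decide the call. In the 681 windows not called, the largest mean losses were those of PML-RARa replicates 5 and 6 (-22.7 points), WT replicates 1 and 2 (-16.7) and PML-RARa replicates 11 and 12 (-15.1), which hold the 5 libraries of high scatter, and the other 7 pairs changed by -13.9 to -7.60 points. The part of that scatter in the turn of sign was not tested.

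**Figure D4:**
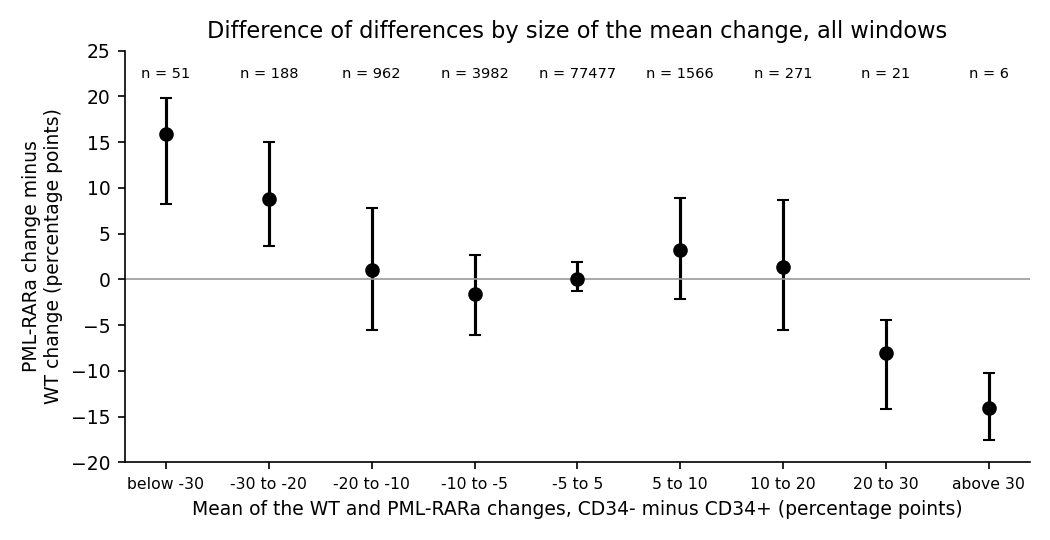
Difference of differences (PML-RARa change minus WT change, percentage points) by the mean change of both genotypes, with the median as a point and the quartiles as bars for the number of windows given above each. The median is 15.9 points at the largest losses and -14.1 points at the largest gains (6 windows), negative at losses of 5 to 10 points and positive at gains of 5 to 20 points.

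Among the largest losses, all 8 named windows changed less in PML-RARa cells, by 5.29 to 29.3 points. They were the 8 windows with the largest mean loss among those called for the fraction effect, 2 had an unadjusted p below 0.05 for the interaction, and the adjusted p lay between 0.943 and 0.980 (quasi-binomial test, Benjamini-Hochberg). No annotation of mm9 was used here, so windows are given by position without genes.

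The window chr15:59538001-59539000 had the largest difference of differences of the 8. Its 7 cytosines lay between positions 59538780 and 59538866. In WT CD34+ libraries the level was 86.5, 82.6, 90.9, 62.8 and 67.8%, and in WT CD34- libraries 25.4, 26.0, 28.8, 13.3 and 13.5%. In PML-RARa CD34+ libraries it was 71.6, 89.2, 65.4, 56.9 and 62.4%, and in PML-RARa CD34- libraries 36.4, 63.4, 55.0, 29.9 and 23.3%. Of the 5 PML-RARa CD34- libraries, 4 lay above every WT CD34- library, so that here the late cells carried much of the difference. The change was -56.8 points in WT and -27.5 points in PML-RARa cells, a difference of 29.3 points (95% interval 5.72 to 52.8, limma; adjusted p = 0.943, quasi-binomial test). The pair changes did not overlap, with -62.2 to -49.5 points in WT and -39.1 to -10.4 points in PML-RARa mice, and all 7 cytosines had the same sign.

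At chr9:50701001-50702000, the largest mean loss, the late cells of both genotypes were close to unmethylated. WT CD34- libraries stood at 14.3, 2.19, 10.3, 0.0938 and 1.38%, and PML-RARa CD34- libraries at 6.33, 17.8, 9.04, 1.95 and 5.39%. The early cells differed more, with 68.1, 76.6, 89.6, 62.7 and 71.2% in WT and 64.9, 89.5, 50.4, 34.3 and 35.8% in PML-RARa CD34+ libraries. In PML-RARa mice 3 early libraries lay below every WT one and replicate 5 lay just under the highest of them. The changes were -68.0 and -46.9 points, a difference of 21.1 points (95% interval -3.47 to 45.6, limma; adjusted p = 0.947, quasi-binomial test).

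At chr14:70966001-70967000 the early cells of the genotypes did not overlap. WT CD34+ libraries had 92.4, 79.4, 78.8, 76.7 and 71.2% and PML-RARa CD34+ libraries 49.4, 57.2, 37.6, 52.2 and 35.0%. In CD34- libraries the levels were 27.7, 29.5, 28.9, 35.7 and 32.1% in WT and 33.1, 0, 5.11, 23.8 and 22.6% in PML-RARa mice. The difference of differences was 19.5 points (95% interval 1.40 to 37.7, limma; adjusted p = 0.963, quasi-binomial test), and 3 of its 4 cytosines had that sign.

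At chr12:82043001-82044000 the change was -52.3 points in WT and -32.3 points in PML-RARa cells. The WT CD34+ libraries had 61.9, 56.0, 75.6, 38.9 and 52.7% and the PML-RARa CD34+ libraries 32.7, 60.3, 38.4, 24.4 and 36.2%, with 4 of the 5 below every WT library. The CD34- means were 4.75% ± 4.18 and 6.06% ± 6.97 (SD, n = 5 each). The difference of differences was 19.9 points (95% interval 1.12 to 38.7, limma; adjusted p = 0.950, quasi-binomial test), with the same sign at all 6 cytosines.

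The other 4 losses gave differences of 16.7 points at chr19:18655001-18656000, 15.6 at chr5:134691001-134692000, 18.8 at chr9:96041001-96042000 and 5.29 at chr1:135000001-135001000. Without WT CD34+ replicate 1 the difference at chr19:18655001-18656000 was 8.22 points, and without PML-RARa CD34+ replicate 13 it was 10.9. In the last of the 4 windows PML-RARa CD34+ replicate 11 stood at 87.9%, with the other 4 between 37.3 and 51.1%, and without it the difference was 13.7 points. Without other single libraries it ran from 1.09 points (PML-RARa CD34+ replicate 19) to 8.29 points (WT CD34+ replicate 15), and 1 of its 3 cytosines had the sign of the window. Thinned to equal coverage, the difference of that window was -3.39 points. In all 8 windows the PML-RARa mean was the lower one in CD34+ cells, and in 4 of 8 in CD34- cells.

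All 6 named gains also had the smaller change in PML-RARa cells, by 0.724 to 18.8 points, with adjusted p between 0.950 and 0.979 (quasi-binomial test, Benjamini-Hochberg) and no unadjusted p below 0.05. At chr7:54248001-54249000 the WT CD34+ libraries had 62.2, 43.6, 33.3, 56.2 and 40.8% and the PML-RARa CD34+ libraries 65.9, 66.1, 51.3, 68.9 and 71.2%. The CD34- libraries were high in both, with 91.1, 90.8, 84.6, 87.5 and 94.0% in WT and 92.6, 98.2, 75.3, 91.0 and 84.1% in PML-RARa mice. In PML-RARa mice 4 early libraries lay above every early WT library, while the late libraries overlapped. The gain was 42.4 points in WT and 23.6 points in PML-RARa cells, a difference of -18.8 points (95% interval -34.3 to -3.29, limma; adjusted p = 0.963, quasi-binomial test).

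The largest gain of all, at chr9:116075001-116076000, varied within PML-RARa mice by more than it differed between genotypes. Its pair changes were 66.2, 50.6, 53.3, 30.5 and 54.2 points in WT and -9.78, 74.1, 22.1, 32.9 and 54.4 points in PML-RARa mice. The difference of differences was -16.2 points, and -9.23 without PML-RARa CD34+ replicate 3. At chr8:12931001-12932000 the gain was 48.3 points in WT and 36.3 points in PML-RARa cells. At chr15:99473001-99474000 it was 41.0 and 22.9 points, and at chr7:121334001-121335000 it was 36.3 and 26.6 points. The difference of the last one was -9.70 points, -4.90 without WT CD34+ replicate 9 and -6.33 without PML-RARa CD34- replicate 4. The gain at chr4:55754001-55755000 was 40.3 and 39.5 points, a difference of -0.724 points whose sign turned in several settings.

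**Figure D5:**
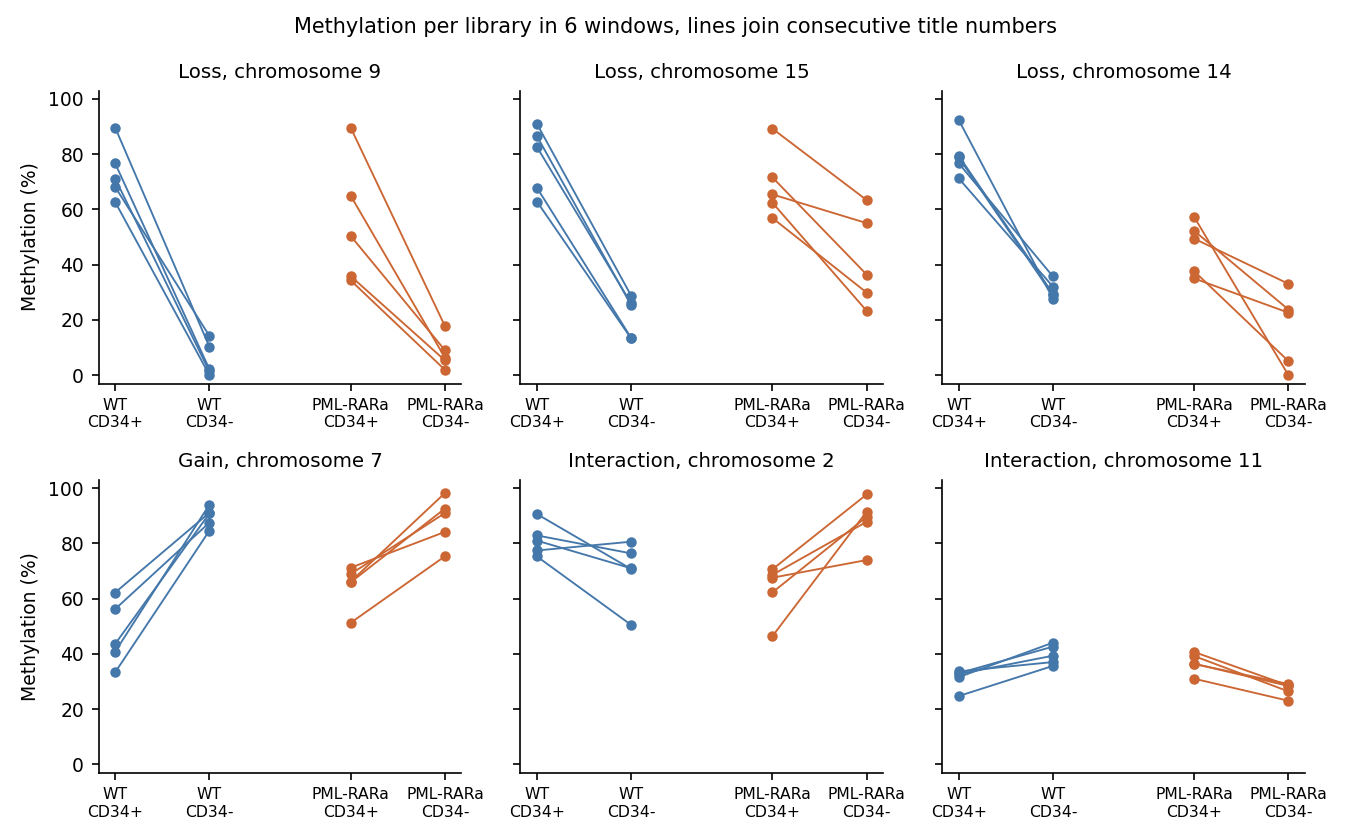
Methylation (%) of each library in 6 windows, with lines that join libraries of consecutive title numbers, WT in blue and PML-RARa in orange. The losses are those at chr9:50701001-50702000, chr15:59538001-59539000 and chr14:70966001-70967000, the gain that at chr7:54248001-54249000, and the interaction windows those at chr2:59618001-59619000 and chr11:98610001-98611000, where the lines of the genotypes slope in opposite directions on average.

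Of the 12 windows named for the smallest p for a different change, 0 were called for the fraction effect. The share over all windows was 0.661%, so this count says nothing particular about the 12 windows. They were named as the 6 smallest p in each direction among windows with at least 10 points and at least 50 reads in every library, since none was called. Their adjusted p lay between 0.809 and 0.911 (quasi-binomial test, Benjamini-Hochberg), and their values are a description of windows picked for their difference.

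At chr11:98610001-98611000, which had the smallest p among them, methylation was intermediate and the genotypes changed in opposite directions. WT CD34+ libraries had 33.7, 31.6, 24.7, 33.0 and 32.7% and WT CD34- libraries 37.1, 44.1, 35.6, 42.6 and 39.3%. PML-RARa CD34+ libraries had 31.0, 39.2, 36.4, 36.4 and 40.7% and PML-RARa CD34- libraries 23.05, 26.4, 29.1, 28.4 and 28.6%. Every late WT library lay above every early WT library and every late PML-RARa library below every early one. The difference of differences was -18.2 points (95% interval -26.5 to -10.01, limma; adjusted p = 0.809, quasi-binomial test).

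At chr2:59618001-59619000 the change was -11.6 points in WT and 25.01 points in PML-RARa cells, the largest difference among the 12 at 36.6 points (95% interval 19.9 to 53.4, limma; adjusted p = 0.908, quasi-binomial test). All 5 PML-RARa pair changes were positive, between 6.39 and 45.0 points, and the WT pair changes ran from -24.8 to 3.18 points. The neighbouring window chr2:59617001-59618000 changed by -15.96 points in WT and -10.7 points in PML-RARa cells. Its difference was smaller and of the same sign, at 5.29 points (unadjusted p = 0.985, quasi-binomial test).

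In 9 of the other 10 windows at least 3 of the 4 groups had a mean of 85% or more. At chr14:25743001-25744000 the PML-RARa level was 87.4% ± 4.11 in CD34+ and 98.0% ± 2.28 in CD34- cells, against 97.4% ± 1.97 and 92.5% ± 2.25 in WT (SD, n = 5 each). All WT pair changes there were negative (-7.40 to -1.18 points) and all PML-RARa ones positive (4.51 to 16.7 points). At chr4:147618001-147619000 the order was the reverse, with 98.6% ± 2.25 and 87.4% ± 5.59 in PML-RARa and 88.7% ± 2.96 and 94.3% ± 3.26 in WT cells (SD, n = 5 each). At chr18:54438001-54439000 the WT change was -13.6 points and the PML-RARa change 7.62 points. The remaining ones of positive sign, at chr5:147926001-147927000, chr10:22674001-22675000 and chr13:70075001-70076000, had differences of 12.2, 10.9 and 15.2 points. Those of negative sign, at chr7:25020001-25021000, chr3:51498001-51499000 and chr2:33831001-33832000, had -10.3, -18.1 and -15.1 points.

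A single window of the 12 did not hold at the level of single cytosines. At chr19:36178001-36179000 the summed reads gave -15.2 points, while its 3 cytosines had differences of differences of -2.05, 0 and -1.04 points. With each cytosine counted equally the window gave -1.03 points, and thinned to equal coverage per cytosine -2.51 points. Over all windows both ways of counting differed by a median of 0.374 points, and by at least 10 points at 540 windows (0.639%). At the 493 losing windows the median difference of differences was 7.52 points with each cytosine counted equally, and at the 66 gaining windows -5.97 points.

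Pair changes that did not overlap between the genotypes were measured at 689 windows (0.815%, beside 0% called). About that share arises with 5 pairs against 5 when the genotypes do not differ, so the total is no excess. The exact permutation of pair changes gives such a separation an unadjusted p of 0.00794, as for the class of windows above 80%. The PML-RARa changes lay above at 448 of the windows without overlap and below at 241. With a difference of at least 10 points these were 182 and 81. All WT pair changes were negative and all PML-RARa ones positive, with at least 10 points between the means, at 27 windows, and the reverse held at 19. Among the 493 losing windows 28 (5.68%) had pair changes that did not overlap, and among the 66 gaining windows 1 (1.52%). Without the call these were 35 of the 1201 losses of at least 10 points (2.91%) and 3 of the 298 gains (1.01%). In the 681 losses of 10 to 20 points not called there were 7 (1.03%).

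Averaged over the genome read here, maturation lowered the measured methylation slightly in both genotypes. Mean methylation over the 1150978 shared cytosines changed by -0.430 points in WT and by -0.264 points in PML-RARa mice. The difference of differences was 0.166 points (SE 0.147, 95% interval -0.146 to 0.477; two-sided exact permutation of genotype within fraction, p = 0.300, adjusted over 7 tests p = 0.525). Without PML-RARa CD34+ replicate 13 it was 0.107 points. Flowcell B, the 1 flowcell with all 4 groups, gave 0.0173 points from 1 WT library of each fraction, 3 PML-RARa CD34+ and 2 PML-RARa CD34- libraries, so that value has no replicate in WT.

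The pair changes in mean methylation were -0.434, -0.363, -0.471, -0.454 and -0.428 points in WT (replicates 1 and 2, 7 and 8, 9 and 10, 15 and 16, 17 and 18). In PML-RARa mice they were -0.316, -0.420, -0.181, -0.172 and -0.232 points (replicates 3 and 4, 5 and 6, 11 and 12, 13 and 14, 19 and 20). All 10 were negative, and 4 of the 5 PML-RARa values were nearer to 0 than every WT value. Over pairs on 1 flowcell the difference of differences was 0.172 points.

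By class of window, the difference of differences was 0.0656 points below 20% mean methylation, 0.826 points at 20 to 80% and 0.310 points above 80%. It was 0.419 points in windows of 3 to 9 cytosines, 0.166 at 10 to 19 and -0.0114 at 20 or more. The changes at 20 to 80% were -2.02 points in WT and -1.19 points in PML-RARa mice, with a 95% interval of the difference of -0.606 to 2.26 points. In the permutation over libraries no class passed (exact, two-sided; adjusted p of 0.525 or more over 7 tests).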

How the data were processed

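Percent methylation was measured by ERRBS in 20 libraries. The tools named in the submitters' processing notes are Bismark and CASAVA 1.8.2, with mm9 as the genome build. The deposited coverage is a count of reads per CpG cytosine, beside which the file headers name frequencies of C and T, given by the authors in percent. Methylated reads were computed as coverage times percent C, rounded. Reads were summed over windows of 1000 bp, from cytosines that reached 10 reads in every one of the 20 libraries. The test per window was a quasi-binomial logistic fit (F test of deviance, overdispersion moderated over windows), with limma 3.58.1 and edgeR 4.0.16 as alternatives, and p-values were adjusted over all windows. The exact permutation test used 63504 arrangements. The model was tested on simulated data. Reads carry no molecular identifiers. Named windows were the 8 largest losses and 6 largest gains called for the fraction effect and, for the interaction, the 6 smallest p in each direction. The comparison, lists and alternatives were chosen with earlier results of these data known. Gene annotation was not used here because the tables at hand are of another build.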

Additional observations from a re-analysis of the deposited data

Results flagged for a closer look

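In groups of 5, values far from the other 4 were looked for with Dixon's ratio (critical value 0.71) over 210 groups of levels or pair changes. The ratio was passed by 12 values, where chance gives about 1 in 20 groups. The mean change over the 493 losing windows was -24.4 points in PML-RARa replicates 5 and 6, against -15.2 to -11.9 points in the other 4 PML-RARa pairs. At chr1:135000001-135001000 PML-RARa CD34+ replicate 11 stood at 87.9%, against 37.3 to 51.1%, and its pair with replicate 12 changed by -82.0 points, against -36.7 to -28.8 points. PML-RARa CD34+ replicate 11 was also low at chr7:54248001-54249000, with 51.3% against 65.9 to 71.2%. The pair of WT replicates 15 and 16 changed by 23.5 points at chr8:12931001-12932000, against 52.3 to 57.1 points. At chr19:36178001-36179000 WT CD34- replicate 16 stood at 23.9%, against 9.85 to 13.6%, and its pair changed by 11.9 points, against -0.432 to 1.596 points. The other 5 values were single levels: 90.5% in WT CD34+ replicate 1 at chr10:22674001-22675000, 93.6% in PML-RARa CD34- replicate 14 at chr13:70075001-70076000, 24.7% in WT CD34+ replicate 9 at chr11:98610001-98611000, 18.1% in PML-RARa CD34- replicate 4 at chr12:82043001-82044000 and 15.2% in WT CD34- replicate 10 at chr9:96041001-96042000.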

How the results depend on the processing

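The interaction gave 0 called windows in every setting run. An unadjusted p below 0.05 was counted at 2296 of 48616 windows with at least 5 cytosines and at 9590 of 156775 with at least 1. Of the 84524 main windows it was counted at 2426 by edgeR and at 5958 over pairs on 1 flowcell. Without single libraries the count was 3985 to 5379 of the 84524. With 20 reads required, the fraction effect was called at 276 of 54343 windows and the pair changes did not overlap at 445. In the main setting these were 559 and 689 of 84524. Without single libraries the fraction effect was called at 423 to 569 windows, and at 375 to 558 without single pairs, which were left out after the data were seen.

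The median difference of differences at losing windows was 7.83 points with 20 reads and 8.47 without the 5 libraries of high scatter. Over pairs on 1 flowcell, which leave out PML-RARa replicates 5 and 6, it was 9.85 points. At the 342 losing windows called by limma it was 7.88 points, and at the 333 called with flowcell as a factor 8.96 points. Both settings changed only which windows were called, so neither median was adjusted for flowcell. Without single libraries the median ran from 5.96 to 9.33 points, and without single pairs from 6.23 to 9.57. At gaining windows it lay between -8.07 (pairs on 1 flowcell) and -4.33 points (20 reads), without single libraries between -7.86 and -4.54, and without single pairs between -7.06 and -4.41. Over all windows with a mean change of at least 10 points, called or not, chosen after seeing the data, the medians were 2.90 points at losses and, with the sign turned, 0.775 at gains.

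The pairing by title number was checked: the deviations of the 2 libraries of a pair correlated at -0.0568 to 0.221, 3 of 10 pairs were over 0.1, and 11 of 20 libraries correlated best with their own number. With the pair as a replicate block the quasi-binomial test also called 0 windows. In the exact permutation of the 10 pair changes (all arrangements), adjusted over 7 tests, the difference of differences passed for mean methylation (0.166 points, p = 0.0370), for windows above 80% (0.310 points, p = 0.0278) and for windows of 3 to 9 cytosines (0.419 points, p = 0.0278). The windows called with the block had a median difference of differences of 7.49 points at the 427 losing and -6.29 points at the 55 gaining ones.

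Signs turned for values close to 0. Mean methylation gave -0.328 points when all reads were pooled (exact permutation p = 0.924) and 0.235 points over every listed cytosine. Without single libraries it ran from 0.107 to 0.218 points, windows below 20% from 0.0303 (without PML-RARa CD34- replicate 20) to 0.105 (without PML-RARa CD34+ replicate 5), and windows of 10 to 19 cytosines from 0.0930 (without WT CD34- replicate 16) to 0.261 (without PML-RARa CD34+ replicate 5). Windows of 20 or more cytosines gave 0.0578 points over pairs on 1 flowcell, 0.0185 without the 5 libraries of high scatter, -0.0514 to 0.0311 without single libraries and -0.0527 to 0.0304 without single pairs. Windows of 10 to 19 cytosines gave -0.00662 points within flowcell B, where each WT group is 1 library. The window chr4:55754001-55755000 gave 0.634 points with 20 reads and -4.91 to 2.81 points without single libraries, and chr1:135000001-135001000 gave -3.39 points after thinning. The cause was not tested. A true difference under about 10 points could not be resolved at most intermediate windows, as the intervals show.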
